A study of Mus musculus with 14 samples.

Results

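Oocyte transcripts were followed in granulosa cell (GC) libraries from obese mice. The set held 10 genes, Gdf9, Bmp15, Zp1, Zp2, Zp3, Ooep, Nlrp5, Padi6, Dppa3 and Oosp1, taken by name out of the 55414 genes of the deposited count table, and all 10 had an identifier there. They were chosen by name, with earlier results of these data known. The set was examined to find out whether transcripts known from the egg rose together in single GC libraries and whether they differed between mutant and control mice.

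The oocyte and the GCs around it build the ovarian follicle together and depend on each other. The oocyte secretes growth factors of the TGF-beta superfamily, surrounds itself with a glycoprotein coat, the zona pellucida, and stores maternal proteins and RNAs for the early embryo. GCs reach through the zona with fine projections, feed the oocyte through gap junctions, and answer its growth factors through receptors and SMAD proteins. The genes followed here are known as products of the oocyte, not of GCs.

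The mice were females fed a chow diet up to 12 weeks of age. Leptin receptor mutants (db/db, strain B6.BKS(D)-Lepr db/J) gave 4 libraries and their lean controls (CT db) 4, while leptin mutants (ob/ob, strain B6.Cg-Lep ob/J) gave 3 libraries and their lean controls (CT ob) 3. The labels call the controls wild type whereas their column names read heterozygous, and which is right is not settled here. Model, strain and colony cannot be told apart in any comparison between the db and ob animals. GCs came from punctured antral follicles, where GC-oocyte complexes were released together and the oocytes were then stripped of GCs and taken out, and each library was made from poly(A) RNA of about 50 pooled GCs. Libraries are called here by their group and column number, such as CT db library 37.

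The libraries held between 2204686 and 8367593 counts on genes. A level is given in CPM, counts scaled to a common library size, and 3 counts, which had to be exceeded for a gene to be taken as detected, stood for 0.369 to 1.3 CPM. The ob/ob libraries were the deepest (5306632 to 8367593 counts) and the db/db libraries the shallowest (2204686 to 3059777 counts). The CPM carry TMM (trimmed mean of M-values) scaling over all 14 libraries. The labelled cell type had its markers: the 11 GC markers summed to between 11331 and 29628 CPM in every library, led by Gja1, the gap junction protein connexin 43, and Inha, the inhibin alpha subunit.

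E-boxes are short motifs bound by helix-loop-helix proteins, and the oocyte factor FIGLA is known to act through E-boxes on the zona genes. The stretches upstream of Zp1, Zp2 and Zp3 are shown because each holds several E-boxes. Whether E-boxes bear on the levels in these libraries was not tested. Each run covers bases 250 to 11 before the start of the gene's canonical GENCODE transcript in GRCm39, which for Zp2 is position 119744513, 1 base inside the outer end of the gene, read 5′ to 3′ on the gene's strand, and capitals mark every match to the E-box letters CANNTG, a motif that reads the same on both strands. They lie at chr19:10898007-10898246 (reverse strand) for Zp1, chr7:119744524-119744763 (reverse strand) for Zp2 and chr5:136008703-136008942 (forward strand) for Zp3.
Zp1: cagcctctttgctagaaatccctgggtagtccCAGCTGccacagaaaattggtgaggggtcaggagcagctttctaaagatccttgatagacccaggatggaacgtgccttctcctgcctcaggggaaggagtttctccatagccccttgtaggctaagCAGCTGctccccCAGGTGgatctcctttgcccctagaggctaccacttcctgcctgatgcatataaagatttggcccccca
Zp2: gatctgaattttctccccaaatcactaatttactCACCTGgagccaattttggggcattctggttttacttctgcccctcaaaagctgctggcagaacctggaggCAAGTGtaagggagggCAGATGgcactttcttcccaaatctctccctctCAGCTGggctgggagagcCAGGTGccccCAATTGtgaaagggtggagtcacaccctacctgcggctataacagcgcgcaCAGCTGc
Zp3: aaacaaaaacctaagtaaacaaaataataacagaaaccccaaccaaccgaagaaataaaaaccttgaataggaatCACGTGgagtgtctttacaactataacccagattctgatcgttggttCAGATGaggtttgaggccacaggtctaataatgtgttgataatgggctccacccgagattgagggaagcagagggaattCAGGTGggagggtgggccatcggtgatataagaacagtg

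Zp1 held 3 E-boxes, Zp2 held 7 and Zp3 held 3. Over all 10 genes, 9 held at least 1 E-box in the 250 bases before the start, against 64.8% of 21627 protein-coding genes, and Ooep held none. The element bound by the oocyte homeobox protein NOBOX (letters TAATTG, the palindrome TAATTA, or the variant TAGTTG, sought on both strands) was found upstream of Bmp15, Zp3, Ooep and Nlrp5, 4 of the 10, against 16.6% of all promoters. Among 44 further oocyte genes described below, 7 held a NOBOX element (15.9%), near the share of all promoters, and 38 held an E-box (86.4%). These matches describe letters, not bound sites, and no binding data were analysed here.

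Gdf9 and Bmp15, the secreted ligands through which the oocyte directs GC growth and cumulus function, differed by a larger fold between libraries of 1 group than between the means of mutants and controls. Gdf9 (ENSMUSG00000018238, chromosome 11, 53321850 to 53328731, forward strand) stood at 1.13, 63.3, 33.2 and 5.46 CPM in CT db libraries 37, 51, 69 and 75, and at 2.56, 13.8, 16.9 and 2.81 CPM in db/db libraries 24, 53, 68 and 81. In the ob animals it reached 339, 70.0 and 15.6 CPM in CT ob libraries 60, 65 and 68, and 52.6, 23.9 and 199 CPM in ob/ob libraries 41, 50 and 106. The highest library exceeded the lowest 56.2-fold within CT db, 6.6-fold within db/db, 21.7-fold within CT ob and 8.34-fold within ob/ob. CT ob library 60, ob/ob library 106 and CT db library 51 were high and CT db library 37 was lowest, with 4 counts, and mutant and control values overlapped in both models.

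Bmp15 (ENSMUSG00000023279, chromosome X, 6226161 to 6232775, reverse strand) had 0 counts in CT db library 37 and 60.7, 34.3 and 0.546 CPM in CT db libraries 51, 69 and 75. The db/db libraries 24, 53, 68 and 81 gave 0.426, 10.3, 10.4 and 0.937 CPM. In CT ob libraries 60, 65 and 68 it was 214, 46.8 and 7.14 CPM, and in ob/ob libraries 41, 50 and 106 it was 32.0, 20.4 and 126 CPM. The ligands therefore shared their high and low libraries: library 51 was the highest of CT db for both, library 60 of CT ob and library 106 of ob/ob. Within CT db, Bmp15 was at least 71.9-fold higher in library 51 than the 3-count floor of library 37.

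Zp1, Zp2 and Zp3 encode the zona pellucida, the coat that holds the sperm receptor and blocks further sperm after fertilisation. Zp1 (ENSMUSG00000024734, chromosome 19, 10891651 to 10897996, reverse strand), which cross-links zona filaments, stood at 0.281, 13.2, 6.32 and 1.36 CPM in CT db libraries 37, 51, 69 and 75, and at 0, 2.15, 3.46 and 0 CPM in db/db libraries 24, 53, 68 and 81. It stood at 52.9, 23.4 and 3.06 CPM in CT ob libraries 60, 65 and 68, and at 9.55, 7.02 and 40.7 CPM in ob/ob libraries 41, 50 and 106. The lowest Zp1 values sat in the libraries where Gdf9 was lowest.

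Zp2 (ENSMUSG00000030911, chromosome 7, 119725995 to 119744514, reverse strand), which takes part in sperm binding, was at 0.844, 29.6, 12.6 and 2.18 CPM in CT db libraries 37, 51, 69 and 75, and at 0.853, 3.44, 6.93 and 0 CPM in db/db libraries 24, 53, 68 and 81. In CT ob libraries 60, 65 and 68 it was at 161, 55.1 and 8.84 CPM, and in ob/ob libraries 41, 50 and 106 at 41.8, 17.1 and 114 CPM. All 3 ob/ob libraries lay above all 4 db/db libraries, while Zp2 in CT ob library 68 fell among the CT db values.

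Zp3 (ENSMUSG00000004948, chromosome 5, 136008953 to 136017478, forward strand), a main building block of zona filaments, had 0, 19.8, 11.3 and 0.546 CPM in CT db libraries 37, 51, 69 and 75, and 0.426, 2.15, 5.2 and 0 CPM in db/db libraries 24, 53, 68 and 81. The ob libraries gave 121, 33.1 and 9.86 CPM for CT ob 60, 65 and 68, and 18.1, 12.1 and 57.3 CPM for ob/ob 41, 50 and 106. For all 3 zona genes the order within CT ob was library 60, then 65, then 68, and within ob/ob library 106, then 41, then 50.

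Ooep, Nlrp5 and Padi6 encode proteins stored in the egg cortex and lattices, where Ooep and Nlrp5 (also called Mater) belong to the subcortical maternal complex and Padi6 is needed to form the cytoplasmic lattices. Ooep (ENSMUSG00000032346, chromosome 9, 78283366 to 78286030, reverse strand) was at 0.281, 16.2, 14 and 1.64 CPM in CT db libraries 37, 51, 69 and 75, and at 0.426, 7.31, 4.33 and 0.625 CPM in db/db libraries 24, 53, 68 and 81. It was at 50.4, 15.2 and 9.52 CPM in CT ob libraries 60, 65 and 68, and at 16.1, 16.5 and 42.8 CPM in ob/ob libraries 41, 50 and 106. Ooep was one of the members whose highest db/db value was in library 53 instead of library 68.

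Nlrp5 (ENSMUSG00000015721, chromosome 7, 23085314 to 23141347, forward strand) had 0, 12.1, 10.2 and 2.18 CPM in CT db libraries 37, 51, 69 and 75, and 0, 3.01, 2.6 and 0.937 CPM in db/db libraries 24, 53, 68 and 81. CT ob libraries 60, 65 and 68 had 61.9, 18.9 and 5.44 CPM, and ob/ob libraries 41, 50 and 106 had 12.9, 12.1 and 60.9 CPM. For Nlrp5, CT ob library 60 and ob/ob library 106 were nearly level, and Nlrp5 was the other member with its db/db maximum in library 53.

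Padi6 (ENSMUSG00000040935, chromosome 4, 140454666 to 140469954, reverse strand) stood at 0.563, 43.0, 26.1 and 1.09 CPM in CT db libraries 37, 51, 69 and 75, and at 3.41, 9.89, 13.0 and 5.31 CPM in db/db libraries 24, 53, 68 and 81. The ob values were 185, 54.3 and 17.7 CPM for CT ob 60, 65 and 68, and 33.2, 39.4 and 202 CPM for ob/ob 41, 50 and 106. Its overall maximum was in ob/ob library 106, and all 4 db/db libraries held more Padi6 than CT db libraries 37 and 75.

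Dppa3 and Oosp1 complete the set. Dppa3 (Stella, ENSMUSG00000046323, chromosome 6, 122586548 to 122607237, forward strand), which protects the maternal genome from loss of methylation in the zygote, was at 0, 15.5, 12.4 and 0.819 CPM in CT db libraries 37, 51, 69 and 75, and at 0, 3.01, 4.76 and 0.312 CPM in db/db libraries 24, 53, 68 and 81. It was at 34.5, 11.7 and 4.08 CPM in CT ob libraries 60, 65 and 68, and at 13.2, 11.6 and 40.6 CPM in ob/ob libraries 41, 50 and 106. Dppa3 and Padi6 were the members with their highest value of all in ob/ob library 106.

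Oosp1 (ENSMUSG00000041857, chromosome 19, 11644824 to 11668514, reverse strand), an oocyte-secreted protein, stood at 0.281, 21.1, 12.9 and 1.09 CPM in CT db libraries 37, 51, 69 and 75, and at 0.853, 2.58, 10.8 and 0.625 CPM in db/db libraries 24, 53, 68 and 81. The CT ob libraries 60, 65 and 68 had 46.8, 8.72 and 4.76 CPM, and the ob/ob libraries 41, 50 and 106 had 13.3, 16.0 and 38.5 CPM. For Oosp1, as for Dppa3, CT ob library 65 lay below CT db libraries 51 and 69.

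**Figure D1:**
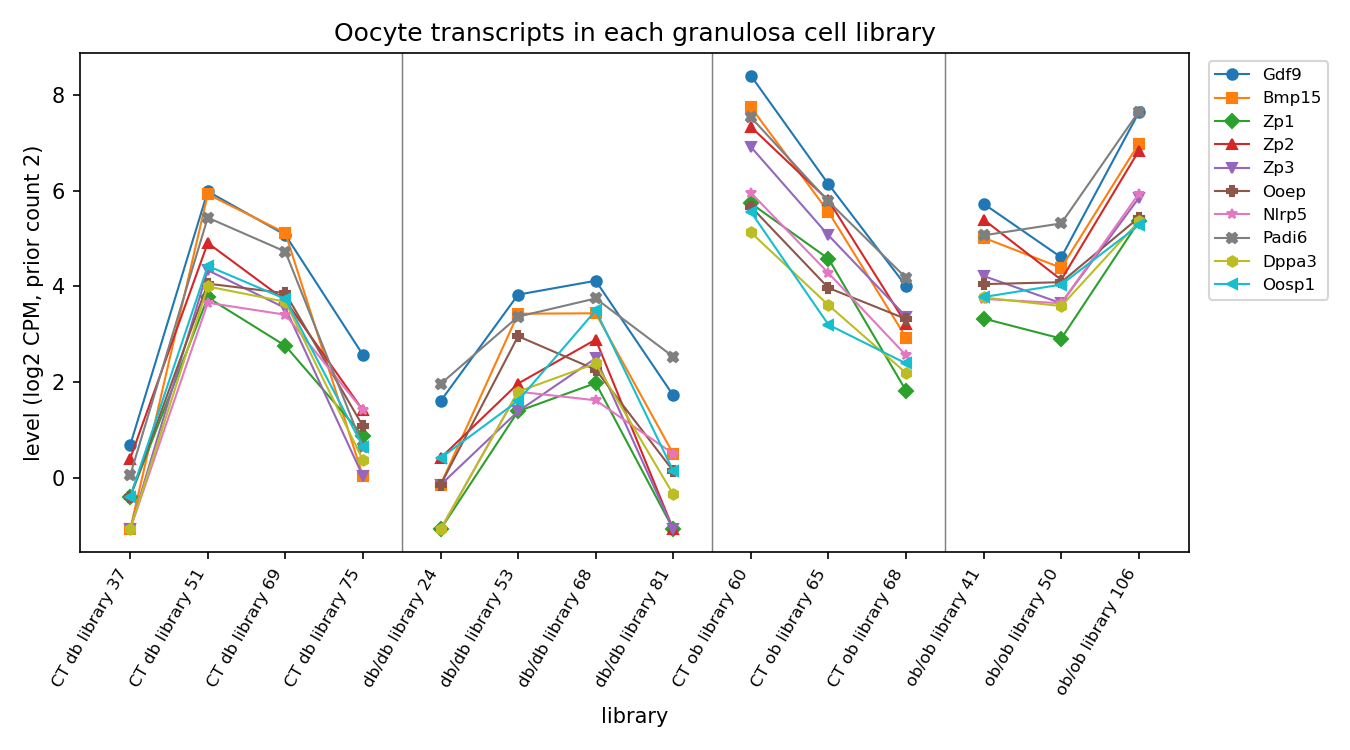
Level of each of the 10 oocyte transcripts (vertical axis, log2 CPM with a prior count of 2) in each of the 14 libraries (horizontal axis), with grey lines between the groups CT db, db/db, CT ob and ob/ob; lines join points of 1 gene within a group and carry no order. The genes rise and fall together, with CT db 51, CT ob 60 and ob/ob 106 the highest of their groups.

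Some members share bases or sequence with other genes. Dppa3 shares 184 exon bases with Gdf3 on the opposite strand, which had 15 counts in all 14 libraries together. Gdf9 shares 1 exon base with Uqcrq on the opposite strand, which had 8807 counts. The Dppa3 pseudogene Dppa3-ps had 1 count and the Nlrp5 pseudogene Nlrp5-ps had 0, and whether reads that match both copies were lost was not tested.

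Summed over the 10 genes, the oocyte level spanned 375-fold between libraries. It was 3.38, 295, 173 and 16.9 CPM in CT db libraries 37, 51, 69 and 75, and 8.95, 57.6, 78.4 and 11.6 CPM in db/db libraries 24, 53, 68 and 81. CT ob libraries 60, 65 and 68 held 1267, 337 and 86.0 CPM, and ob/ob libraries 41, 50 and 106 held 243, 176 and 923 CPM. Group means were 563 ± 622 CPM in CT ob (SD, n = 3), 447 ± 413 CPM in ob/ob (SD, n = 3), 122 ± 138 CPM in CT db (SD, n = 4) and 39.1 ± 34.4 CPM in db/db (SD, n = 4). Neighbours in this order overlapped: CT ob with ob/ob, ob/ob with CT db and CT db with db/db.

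In counts, CT db library 37 held 12 on the 10 genes and CT ob library 60 held 6611. As a share of all counts this was 0.000331% (95% Wilson interval 0.000189 to 0.000579%) and 0.136% (0.133 to 0.14%), intervals that cover counting error only. All 10 genes had over 3 counts in 10 of the 14 libraries, against 7 genes in CT db library 75, 2 in each of db/db libraries 24 and 81, and 1 in CT db library 37. In pooled cells, fewer oocyte-derived cells and less oocyte RNA per cell cannot be told apart.

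**Figure D2:**
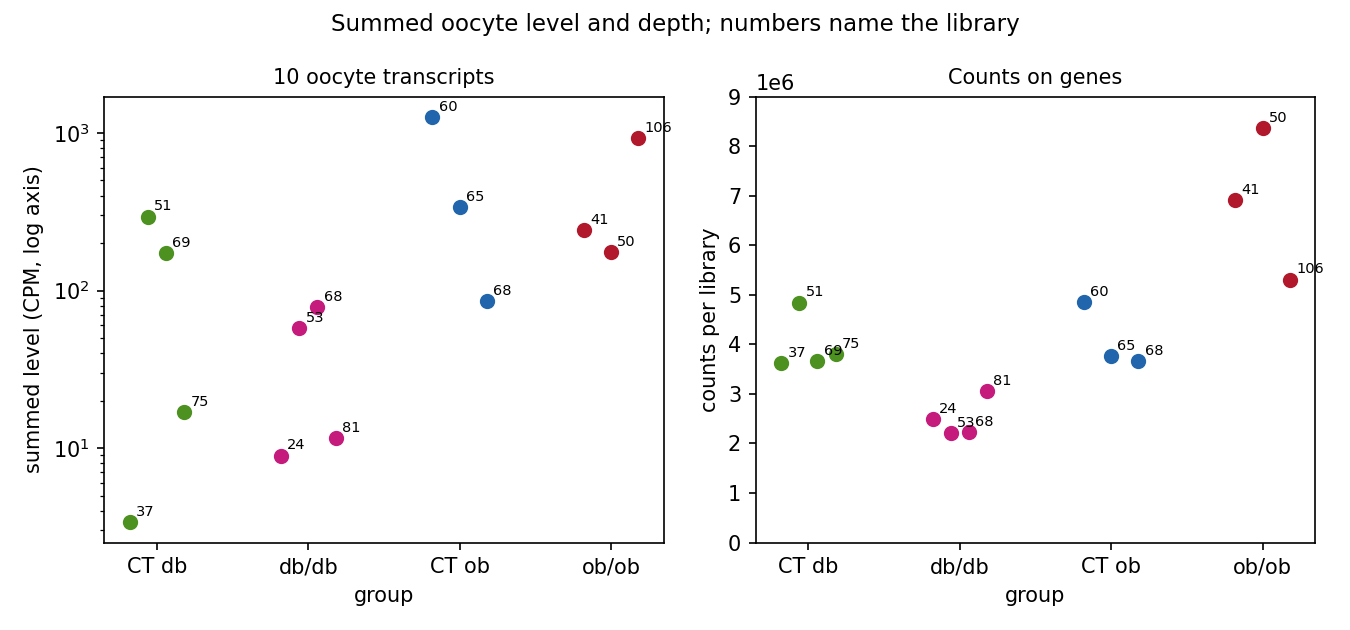
Left: summed level of the 10 oocyte transcripts per library (CPM, log axis) by group, each point a library with its number. Right: total counts on genes per library (linear axis from 0). The oocyte sum runs from 3.38 to 1267 CPM, while totals stay between 2204686 and 8367593 counts.

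The oocyte transcripts peaked together. Of the 10, 8 were highest in CT ob library 60, where 10.2% of 12586 genes had their maximum, and Padi6 and Dppa3 were highest in ob/ob library 106, where 3.73% did. Each of the 10 had its second highest value in the other of these libraries. Within groups, 10 of 10 were highest in CT db library 51 (26.5% of all genes), 10 of 10 in CT ob library 60 (32.7%), 10 of 10 in ob/ob library 106 (30.8%), and 8 in db/db library 68 (24.5%) with Ooep and Nlrp5 in db/db library 53 (25.3%). The 11 GC markers were spread over more libraries: 3 were highest in CT db library 69, 3 in ob/ob library 41, 2 in db/db library 53, and 1 in each of CT db 75, CT ob 60 and CT ob 68.

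Pairs of oocyte genes followed each other across the libraries. Over the 14 libraries, the 45 pairs had a median Spearman rho of 0.95 (0.891 to 0.995), as a description in which the genes of a library share its RNA, amplification and depth. The median was 0.934 over the 8 db libraries, 0.886 over the 6 ob libraries and 0.924 over all 14 after each group's mean was subtracted, and no pair was negative in any of these. The 55 pairs of GC markers had a median of 0.468, with values from -0.956 to 0.89.

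**Figure D3:**
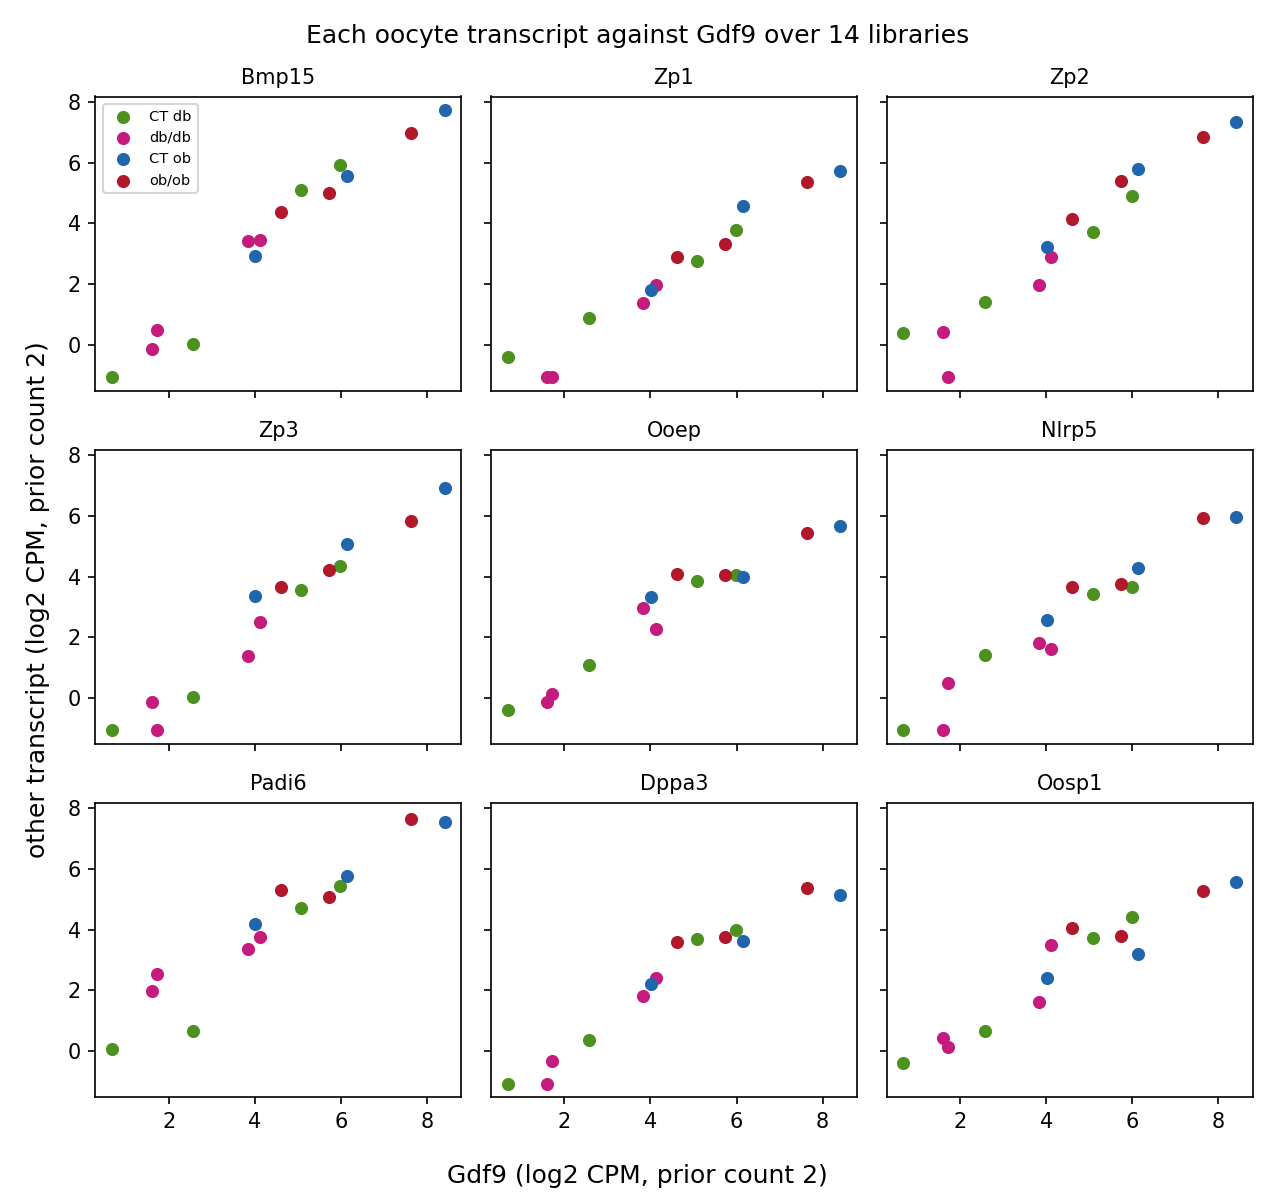
Level of each other oocyte transcript (vertical axis, log2 CPM) against Gdf9 (horizontal axis, log2 CPM) over the 14 libraries, coloured by group. All 9 rise with Gdf9, and points of the 4 groups lie along the same band.

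In libraries with many oocyte counts, the make-up of the oocyte signal varied less than its size. The 7 libraries with at least 500 counts on the 10 genes included no db/db library. In these 7, Gdf9 took 13.6 to 26.8% of those counts, Padi6 13.7 to 22.4% and Bmp15 11.6 to 20.6%. Zp2 took 7.29 to 17.2%, Zp3 6.21 to 9.82% and Zp1 3.65 to 6.94%. The widest range was that of Oosp1, 2.58 to 9.09% or 3.52-fold, and the narrowest that of Zp3, 1.58-fold. The shares were thus not identical between these 7 libraries, yet they moved by at most 3.52-fold where their summed counts ran from 631 to 6611. In the 10 libraries with at least 100 counts, Oosp1 again had the widest range, 5.35-fold. In db/db libraries 24, 53, 68 and 81, Padi6 took 38.1, 17.2, 16.6 and 45.9% of 21, 134, 181 and 37 counts. The make-up in libraries with so few counts was not tested.

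Compared per length, Gdf9 was the most abundant member, with a mean of 29.5 CPM per kb of exon over the 14 libraries. The length merges all annotated exons of a gene, and whether the transcripts present were that long was not tested. Padi6 followed with 17.9, Zp3 with 15.7, Bmp15 with 13.2, Oosp1 with 13.1 and Zp2 with 11.9 CPM per kb. Dppa3 (7.58), Ooep (6.38), Zp1 (5.89) and Nlrp5 (2.99 CPM per kb) were lower, and the means of neighbours in this order differed by less than the spread between libraries. The order pools the groups and was not the same in each: Gdf9 was first in all 4, while Oosp1 was second in CT db (9.1 CPM per kb) and db/db (3.83), and Zp3 was second in CT ob (41.2) but behind Oosp1, Bmp15 and Padi6 in CT db (5.97) and db/db (1.47).

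The genes most like the set were picked by their correlation with its mean log2 CPM over the 14 libraries, again as a description. They were Nlrp9b (Pearson r 0.992), Ezhip (0.99), Fbxw18 (0.99), Dazl (0.99), Oas1e (0.987), Omt2a (0.987), Oosp2 (0.986), Elobl (0.985), Rspo2 (0.984) and Ftdc1 (0.984). Nlrp9b, Dazl, Omt2a and Oosp2 stood on the lists of further oocyte genes. Each of the 10 had its highest value in CT ob library 60 or ob/ob library 106 and at most 1 count in its lowest library.

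Most of a further 44 oocyte genes (transcription factors, maternal complex and Nlrp genes, maternal RNA and chromatin factors, and secreted or surface proteins) moved like the 10. The 40 of the 44 with at least 10 counts in some library had a median r of 0.952 with the mean of the set. Of these, 33 reached 0.9 or more, and the lowest was Ddx4 (r 0.576). Over all 15447 genes with that many counts the median r was 0.01, and 164 genes reached 0.9. All 44 were highest in CT ob library 60 (28 genes) or ob/ob library 106 (16 genes), beside 10.2% and 3.73% of 12586 genes. The 44 include genes with few counts: Sohlh1 and Sohlh2 had at most 3 counts in any library and were not detected.

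Nlrp14, a maternal Nlrp family gene, was the strongest of these by summed level, with 223 CPM in CT ob library 60, 301 CPM in ob/ob library 106 and 0.281 CPM in CT db library 37. Tle6, a member of the subcortical maternal complex, had 108, 99.7 and 7.6 CPM in the same libraries. H1f8, the oocyte linker histone, had 104, 104 and 0 CPM. The next by level were Oog3, Nlrp4f and Bcl2l10. Tle6 was the one of these 6 genes that kept the most counts, 27, where the 10 oocyte transcripts together had 12.

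**Figure D4:**
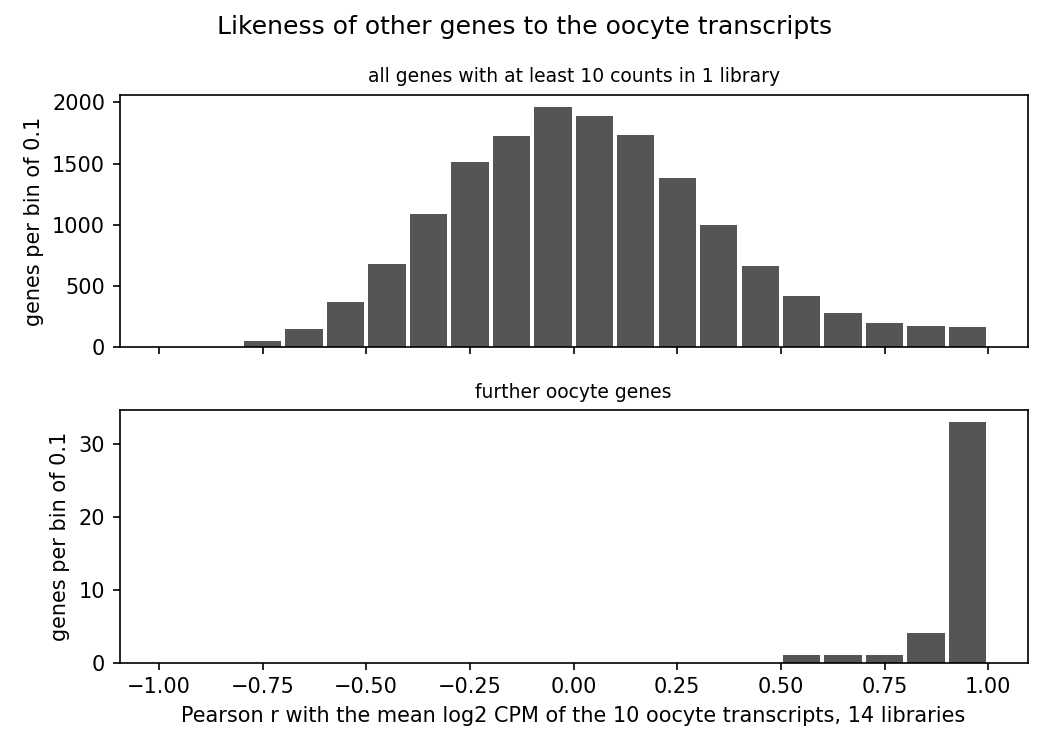
Number of genes (vertical axis) per bin of Pearson r with the mean log2 CPM of the 10 oocyte transcripts over 14 libraries (horizontal axis), for 15447 genes with at least 10 counts in 1 library (top) and for the further oocyte genes among them (bottom). The genes as a whole centre near 0, and 33 of 40 further oocyte genes lie at 0.9 or more.

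For the db model, the question was whether GCs lacking the long leptin receptor carried other amounts of oocyte transcripts than control GCs. No member passed the test in db/db against CT db (edgeR quasi-likelihood test, adjusted p 0.675 to 0.785), beside 0.00884% of 11317 genes called. Of the 10, 6 passed the filter on low counts, and Zp1, Zp3, Nlrp5 and Oosp1 did not. The 6 had log2 fold changes from -2.19 (Bmp15, SE 1.22) to -1.2 (Padi6, SE 0.936), none with an unadjusted p of 0.05 or less (7.59% of all genes), and DESeq2 called 0 of the 6 (0.389% of all genes). On mean CPM, all 10 were lower in db/db, for example Gdf9 with 9.0 ± 7.41 (SD, n = 4) against 25.8 ± 28.8 CPM (SD, n = 4), with exact two-sided permutation p between 0.286 and 0.457, where 0.0286 is the smallest that 4 against 4 libraries allow. The negative direction held in every fit without 1 library in which the gene could be tested, but the size rested on CT db library 51. Without it the log2 fold changes moved to -0.24 for Padi6, -0.59 for Gdf9, -0.79 for Ooep, -0.95 for Zp2 and -1.11 for Bmp15, and Dppa3 could not be tested.

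For the ob model, lack of leptin itself was compared with its controls. No member passed in ob/ob against CT ob (edgeR, 12425 genes tested, adjusted p 0.784 to 0.995), where 0% of all genes were called, and log2 fold changes ran from -0.92 (Zp3, SE 0.843) to 0.35 (Dppa3, SE 0.734). No member had an unadjusted p of 0.05 or less (8.16% of all genes), DESeq2 called 0 of 10 (0.736% of all genes), and exact two-sided permutation p lay between 0.6 and 1.0, where 3 against 3 libraries cannot go below 0.1. The direction rested on single libraries: without CT ob library 60, Gdf9 moved from -0.63 to 1.07 and Zp2 from -0.39 to 0.82, and without ob/ob library 106, Padi6 moved from 0.09 to -1.25 (log2 fold changes).

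Between the control groups, oocyte transcripts had positive log2 fold changes that did not pass the test. In CT ob against CT db the 10 ran from 1.18 (Oosp1, SE 0.992) to 2.76 (Zp3, SE 1.02), with adjusted p from 0.0971 (Zp2) to 0.459 (edgeR, 14-library fit), and 0 were called beside 6.63% of 12586 genes. An unadjusted p of 0.05 or less was reached by 6 of 10 members (Gdf9, Zp1, Zp2, Zp3, Nlrp5 and Padi6), beside 26.9% of all genes, and DESeq2 called 0 of 10 (12.4% of all genes). None of the 10 had groups without overlap (21.2% of all genes), and the exact permutation p was 0.0857 to 0.457. Without CT ob library 60 the log2 fold changes were lower, at -0.4 for Oosp1, 0.14 for Dppa3, 0.18 for Bmp15, 0.61 for Ooep, 0.73 for Gdf9 and between 0.99 (Nlrp5) and 1.48 (Zp2) for the others. Zp1, Zp3, Nlrp5 and Oosp1, which missed the filter within the db libraries, passed it here with the ob libraries included, so the filter itself favours positive values in comparisons between models.

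Between the mutant groups the separation was complete in levels but not past the adjusted test. In all 10 genes every ob/ob library lay above every db/db library, which 5.53% of 12586 genes did in that direction, and the exact two-sided permutation p was 0.0286 for each, the smallest that 3 against 4 libraries allow, without adjustment over genes. The 10 genes followed each other across the libraries (median rho 0.95), so these are not 10 separate results. Here too, Zp1, Zp3, Nlrp5 and Oosp1 passed the filter only with the ob libraries included, where they were higher. Log2 fold changes were 2.64 (Oosp1, SE 1.1) to 4.43 (Zp2, SE 1.19), adjusted p was 0.336 to 0.521 (edgeR), and 0 of 10 were called beside 0.0159% of all genes. All 10 had an unadjusted p of 0.05 or less, beside 8.18% of all genes, and DESeq2 called 0 of 10 (lowest adjusted p 0.115) beside 0.573% of all genes. Positive values held in all fits that left out 1 library, between 2.02 and 5.44 on the log2 scale. Depth moved with this comparison, since each ob/ob library had more counts than each db/db library, and its part in the result was not tested.

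The mutant effect was also compared between models in the same 14-library fit. The difference of the log2 fold changes (ob/ob minus CT ob, less db/db minus CT db) was 0.94 (Gdf9, SE 1.55) to 2.25 (Dppa3, SE 1.55), adjusted p was 0.7 to 0.887 (edgeR), and no member was called (0% of all genes). None had an unadjusted p of 0.05 or less (8.11% of all genes), and DESeq2 called 0 of 10 (0.608% of all genes). These comparisons share libraries, so their values are set side by side and not counted as separate evidence.

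**Figure D5:**
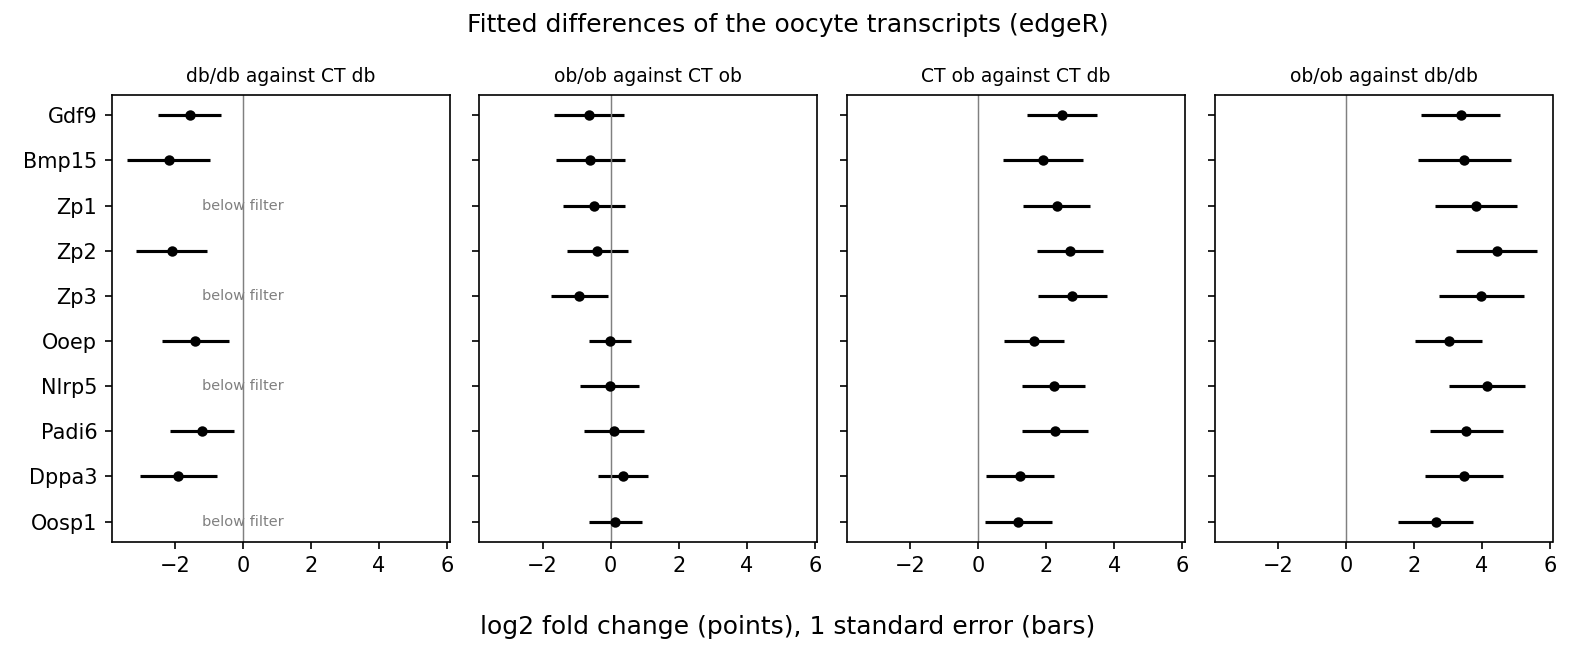
Log2 fold change (horizontal axis; point, with a bar of 1 standard error on each side) of each oocyte transcript (vertical axis) in 4 comparisons by edgeR; genes below the count filter are marked. Values lie from -2.19 to -1.2, -0.92 to 0.35, 1.18 to 2.76 and 2.64 to 4.43 from left to right, and none passed the adjusted test.

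The spread between libraries behind these tests was wide for the oocyte genes. The biological coefficient of variation was 0.854 to 1.24 for the 6 members tested in the db model, where the median of all genes was 0.206, and 0.54 to 0.83 for the 10 in the ob model, where it was 0.282. In the db fit, 0.3% of genes had a value at or above the lowest member, and in the ob fit 8.18% did. When the filter on low counts was dropped, edgeR called 7 of the 10 lower in db/db than in CT db (0.947% of 28505 genes called), 0 in ob/ob against CT ob (1.12% of 32006) and all 10 higher in CT ob than in CT db (4.97% of 34753). It also called all 10 higher in ob/ob than in db/db (1.54%) and 5 in the difference between models (0.947%). All these shares count calls in either direction. In the fit without the filter the prior degrees of freedom were infinite, so every gene took the spread of the trend. The members' median quasi-dispersion was there 0.75 in place of 7.23 over 14 libraries.

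Of the 44 further oocyte genes, 35 were tested between models but 10 in the db model, so most of them passed the filter through the ob libraries and positive values were favoured. In ob/ob against db/db all 35 had positive log2 fold changes (median 3.73, beside -0.01 over all genes), and in CT ob against CT db all 35 were positive (median 1.6, beside 0.06), given as a description. By edgeR 0 of them were called in either, beside 0.0159% and 6.63% of all genes. An unadjusted p of 0.05 or less was reached by 35 in ob/ob against db/db (8.18% of all genes) and by 10 in CT ob against CT db (26.9% of all genes). DESeq2 called 4 higher in ob/ob than in db/db, beside 0.342% of all genes: Mos, a kinase of meiotic arrest (log2 fold change 4.04, SE 0.987, adjusted p 0.031), Nlrp2 (5.99, SE 1.51, adjusted p 0.0358), Npm2, the egg nucleoplasmin (3.0, SE 0.781, adjusted p 0.0403), and Omt2b (5.97, SE 1.61, adjusted p 0.0447). All 4 missed the filter within the db libraries and passed it here through the ob libraries, where they were higher. The share of all genes was not restricted in that way, so these calls are a description only. In the db model 10 of 44 could be tested, with a median of -1.68 and 0 called, 4 of them at an unadjusted p of 0.05 or less (7.59% of all genes), and in the ob model 36, with a median of 0 and 0 called by edgeR or DESeq2, none at that p (8.16%).

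The 10 receptors and SMADs that carry GDF9 and BMP15 signals in GCs, led by Bmpr2 and Bmpr1b, had a median r of -0.099 with the mean of the set, from -0.515 (Tgfbr1) to 0.53 (Smad3). By edgeR 0 of 10 passed in db/db against CT db (0.00884% of all genes) or in ob/ob against CT ob (0%). DESeq2 called Bmpr2 higher in ob/ob than in CT ob (log2 fold change 1.37, SE 0.36, adjusted p 0.0293), beside 0.736% of all genes called. In CT ob against CT db, 2 of 10 passed edgeR (6.63% of all genes), both lower in CT ob: Bmpr2 (log2 fold change -1.39, SE 0.382, adjusted p 0.0446) and Tgfbr1 (-0.77, SE 0.195, adjusted p 0.0342), while Gdf9 in that comparison had a log2 fold change of 2.45 (adjusted p 0.148). DESeq2 called 4 of the 10 lower there (12.4% of all genes in either direction): these and the receptors Bmpr1a (log2 fold change -0.61, SE 0.217, adjusted p 0.0435) and Bmpr1b (-0.84, SE 0.247, adjusted p 0.0113). In ob/ob against db/db none passed edgeR (0.0159% of all genes), the median being -0.13.

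GC transcripts known to be promoted by oocyte factors, led by Ldha, a glycolytic enzyme, and Amh, anti-Mullerian hormone, had a median r of -0.156 with the set over the 8 genes with enough counts. The sum over all 10 genes of the list was 2968 ± 923 CPM in CT db (SD, n = 4), 2944 ± 514 in db/db (SD, n = 4), 2946 ± 403 in CT ob (SD, n = 3) and 3539 ± 555 in ob/ob (SD, n = 3). Has2 and Ptx3, genes of cumulus expansion, stayed at or below 1.85 CPM in every library. The 3 transcripts held down by oocyte factors (Kitl, Lhcgr and Plau) had a median r of -0.302. By edgeR 0 of the 6 and 3 genes of these lists that were tested were called in any comparison, beside 0 to 6.63% of all genes. Amh had a log2 fold change of 2.07 in ob/ob against db/db (SE 0.734, adjusted p 0.416), and Grem1 was lower in CT ob than in CT db by DESeq2 (log2 fold change -5.45, SE 1.4, adjusted p 0.00329) but not by edgeR (adjusted p 0.0626).

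The GC markers themselves summed to 13189 ± 2561 CPM in CT ob (SD, n = 3), below the 25649 ± 5052 CPM of CT db (SD, n = 4), 23614 ± 2826 of db/db (SD, n = 4) and 22389 ± 4373 of ob/ob (SD, n = 3). In CT ob against CT db, 2 of the 11 passed edgeR (6.63% of all genes), both lower in CT ob: Gja1 (log2 fold change -1.47, SE 0.19, adjusted p 0.00221) and Fshr, the FSH receptor (-1.72, SE 0.349, adjusted p 0.0163). The markers did not move as 1, since 4 of the 11 had positive values. The largest were Wt1 (1.74, SE 0.649, adjusted p 0.107) and Foxl2 (0.57, SE 0.221, adjusted p 0.118). DESeq2 also called Fst, the activin-binding follistatin, lower there (-0.95, SE 0.308, adjusted p 0.0241). It called Gja1 higher in ob/ob than in CT ob (0.86, SE 0.196, adjusted p 0.00629) and different between models (1.18, SE 0.241, adjusted p 0.00148). DESeq2 called 12.4%, 0.736% and 0.608% of all genes in these comparisons. By edgeR none of these passed, with adjusted p of 0.0832 for Fst, and 0.539 and 0.215 for Gja1. Within CT ob, library 68 had the highest GC marker sum (16111 CPM) and the lowest oocyte sum (86.0 CPM). That library had the highest value of its group for 40.1% of all genes. Within db/db, library 68 had the highest of both sums (26467 and 78.4 CPM). In CT db the GC marker sum was highest in library 75 and the oocyte sum in library 51, and in ob/ob in libraries 41 and 106. The part of the GC markers in the oocyte values of CT ob was not tested.

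Markers of other ovarian cells had r between -0.503 (Cyp17a1) and 0.581 (Tek) with the oocyte transcripts, where 164 of 15447 genes reached 0.9. The 6 theca markers, led by Ptch1 and Cyp17a1, had a median r of -0.198 with the set over the 5 with enough counts. All 6 summed to 50.1 to 348 CPM per library, highest in db/db library 24. There the oocyte sum was 8.95 CPM and Cyp17a1, the androgen-making enzyme of theca cells, had 600 counts. Pdgfra, on the same list, was lower in ob/ob than in CT ob by DESeq2 (log2 fold change -1.82, SE 0.442, adjusted p 0.0132) but not by edgeR (adjusted p 0.539). DESeq2 called 0.736% of all genes there. The other theca markers tested there, Cyp17a1 and Ptch1, had edgeR log2 fold changes of 0.05 and -0.25. The 6 endothelial markers (led by Pecam1, r 0.466, and Kdr, r 0.501) had a median r of 0.316 and summed to 3.38 to 36.6 CPM, and the 6 immune markers (led by Cd68 and C1qb) had a median r of 0.161 over 5 genes and summed to 1.73 to 12 CPM. Both were highest in CT ob library 65. The 4 surface epithelium markers, led by Muc16 and Upk3b, reached 46.0 CPM in db/db library 24 and at most 5.18 CPM in the libraries of the other groups. Whether the oocyte transcripts came from oocytes left among the GCs or from the GCs was not tested.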

How the data were processed

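The authors deposited 1 table of raw read counts per gene for 14 GC libraries, made from oligo-dT captured, Smart-seq2 amplified RNA (Nextera XT, 75 base single reads, no molecular identifiers). The study's methods name STAR and GRCm39, while the submitters' processing notes name HISAT2 2.1.0, Trim Galore 0.6.2 and GRCm38; which made the counts is not settled here. Counting used no stated strand. Column names gave each library's group but not its replicate number. Identifiers were matched to GENCODE symbols (54749 of 55414).

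edgeR 4.0.16 (R 4.3.3) was run with TMM, filterByExpr (minimum count 10, total 15), quasi-likelihood tests and Benjamini-Hochberg adjustment (threshold 0.05): within each model, and in 1 fit of 14 libraries between models. DESeq2 1.42.0 was an alternative. SE is the log2 fold change over the root of F. Nothing says whether libraries were separate animals, so p-values measure only the spread between them, which may be technical. Log2 CPM used a prior count of 2. The tests were also run on simulated data in which each gene varied independently. Such data cannot show how the tests act on genes that move together across libraries.

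The members and lists were chosen with earlier results of these data known. Named were all members, the 6 further oocyte genes with the highest summed CPM, the 2 highest of each other list, listed genes passing edgeR between mutants and controls, and the 10 most alike. Those passing DESeq2 alone or between models, and list members at the ends of a range, were chosen after their values were seen. So were Has2, Ptx3, Amh, Wt1, Foxl2, Sohlh1 and Sohlh2.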

Additional observations from a re-analysis of the deposited data

How the results depend on the processing

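No paired analysis was possible because the columns carry no replicate numbers of the labels. Under RLE scaling, the robust fit and the mean of the members as a covariate (chosen after seeing the data), every count of calls stayed within 1.5 times its value in the report. DESeq2 called 44 genes in db/db against CT db, 86 in ob/ob against CT ob, 1563 in CT ob against CT db, 72 in ob/ob against db/db and 72 in the interaction, where edgeR called 1, 0, 834, 2 and 0. Without the filter edgeR called 270, 359, 1727, 535 and 329. Scaling by library size called 2 in the db model and 261 between controls, and 1 fit of 14 libraries called 0 in the db and 1 in the ob model. Leaving out 1 library gave 1 to 4 calls in the db model (4 without db/db 68), 112 to 1196 between controls (112 without CT ob 68, 138 without CT db 51, 201 without CT db 75, 376 without CT ob 60, 482 without CT db 69) and 0 to 1 in the interaction (1 without db/db 24).

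The median rho of 0.95 was 0.886 in the ob model alone and 0.924 after group means. In ob/ob against CT ob, Ooep (-0.02) became 0.01 with library size and 0.03 without the filter, and Nlrp5 (-0.03) became 0.0 without it. Leaving out 1 library there gave log2 fold changes of -1.9 to 1.07 for Gdf9, -1.78 to 1.11 for Bmp15, -1.69 to 0.48 for Zp1, -1.36 to 0.82 for Zp2, -1.87 to 0.41 for Zp3, -0.64 to 1.0 for Ooep, -1.22 to 1.19 for Nlrp5, -1.25 to 1.32 for Padi6, -0.46 to 1.42 for Dppa3 and -0.48 to 1.71 for Oosp1. It gave -0.4 to 2.09 for Oosp1 between controls, and in the interaction -0.33 to 2.65 for Gdf9 and -0.05 to 2.53 for Padi6. Except without the filter, whose cause stands in the report, the cause was not tested. At depths where 3 counts were 0.369 to 1.3 CPM, differences below these levels could not be detected.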
